A study of Mus musculus with 4 samples.

Results

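The genes described here are 6 genes of the NF-κB pathway (Nfkb1, Nfkb2, Rela, Relb, Nfkbia and Tnfaip3) and 4 genes for cytokines that epithelial cells secrete (Cxcl1, Cxcl2, Ccl20 and Il6). They were chosen by name, with earlier results of these data known. All 10 were found among the 21440 protein-coding genes with a known strand in a RefSeq gene table of the mouse genome. Their chromatin was read from bulk ATAC-seq of mouse salivary gland organoids (mSGOs), an assay in which the Tn5 transposase cuts DNA where it is open. The labels give 4 samples from the submandibular glands of C57BL/6 mice, all non-irradiated: passage 1 and passage 2 each have 1 sample with the mouse's age given as 12 weeks and 1 with it given as 3 months. All were grown in Matrigel in the same WRY medium, which carries Wnt3a and R-spondin1, the growth factors EGF and FGF2, insulin, the kinase inhibitor Y27632 and dexamethasone, a glucocorticoid.

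The authors deposited 1 list of open regions for the series, with no values by sample. Passages and ages could therefore not be compared, replicate spread and depth per sample are unknown, and every value below is a description with no test. The list's 69545 lines gave 32011 distinct regions, since each summit of a region has a line of its own. Each line carries a fold of signal over the local background, a −log10 p-value and an IDR score of at most 1000, which rises with how reproducibly a region was called. Coordinates were read as GRCm38, because 38.3% of protein-coding 5′ ends in the GRCm38.p6 table had a region midpoint within 1 kb, against 5.18% of GRCm39 ends and 3.77% of GRCm38.p6 ends moved by 50 kb, and because on 8 of 21 chromosomes a region ran past the GRCm39 end. The labels name GRCm39. Markers of cell types were checked against the labelled tissue. A 5′ region was found in 7 of 10 epithelial markers (among them Krt5, Krt14, Krt8, Epcam and Cdh1) but not in Krt18, Krt7 and Trp63. That of Krt5 had a fold of only 2.95. The same held for 1 of 8 immune markers (Cd68), 0 of 6 endothelial and 0 of 6 fibroblast markers, and for 7 of 10 housekeeping genes. Distal regions, described below, were nearest to 7 of 10 epithelial, 2 of 8 immune, 5 of 6 endothelial and 3 of 6 fibroblast markers. A bulk list does not tell a region open in a few cells from one partly open in many.

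NF-κB factors are dimers of the proteins encoded by Rela, Relb, Nfkb1, Nfkb2 and Rel. In resting cells they are held in the cytoplasm by inhibitors of the IκB family such as the product of Nfkbia, and signals from TNF, interleukin-1 or Toll-like receptors activate IκB kinase, which marks the inhibitor for destruction. The freed dimers bind short κB sequences in DNA. Among their best known targets are Nfkbia and Tnfaip3 themselves, whose products switch the pathway off again, and cytokine genes such as Cxcl1, Cxcl2, Ccl20 and Il6, through which epithelium calls in neutrophils and lymphocytes.

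The sequence before the start of each gene is shown first, since it holds the letters by which the members resembled one another. RefSeq promoter sequences of GRCm38.p6 were at hand for 8 members, with Nfkb1 and Relb missing from the table. In the windows of 250 bases before the outermost start listed, the κB letters GGGNNTTNCC, where N is any base, were searched on both strands. They were found in 7 of 8 members, against 4.12% of 17492 such windows of protein-coding genes. On the gene's own strand alone they were in 4 of 8, and the share of all windows on that measure was not computed. Nfkbia, Tnfaip3 and the 4 cytokine genes are textbook NF-κB targets and the letters were picked for that reason, so the count describes the set and is no test of it. In the sequences below, printed 5′ to 3′ on the strand of the gene, capitals mark these letters on either strand. The windows end at the base before the start; of Nfkb2 the matches alone are shown, and of Rela the stretch as far as the outermost 5′ end in the gene table.
Cxcl1, chr5:90890995-90891244, plus strand: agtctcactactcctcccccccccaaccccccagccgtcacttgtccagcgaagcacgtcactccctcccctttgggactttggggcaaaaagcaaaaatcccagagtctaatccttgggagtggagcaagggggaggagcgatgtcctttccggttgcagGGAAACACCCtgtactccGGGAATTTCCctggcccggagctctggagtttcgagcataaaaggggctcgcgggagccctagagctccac
Cxcl2, chr5:90903649-90903898, plus strand: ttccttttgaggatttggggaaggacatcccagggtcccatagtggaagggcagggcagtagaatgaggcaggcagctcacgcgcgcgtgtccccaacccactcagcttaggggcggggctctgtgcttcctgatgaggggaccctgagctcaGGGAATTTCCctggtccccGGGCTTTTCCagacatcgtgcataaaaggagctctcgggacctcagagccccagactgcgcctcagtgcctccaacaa
Ccl20, chr1:83116516-83116765, plus strand: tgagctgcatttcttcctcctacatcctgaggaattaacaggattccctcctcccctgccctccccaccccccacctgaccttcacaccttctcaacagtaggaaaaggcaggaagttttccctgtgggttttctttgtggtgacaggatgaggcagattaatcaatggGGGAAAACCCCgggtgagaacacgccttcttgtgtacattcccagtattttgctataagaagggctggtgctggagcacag
Il6, chr5:30012864-30013113, plus strand: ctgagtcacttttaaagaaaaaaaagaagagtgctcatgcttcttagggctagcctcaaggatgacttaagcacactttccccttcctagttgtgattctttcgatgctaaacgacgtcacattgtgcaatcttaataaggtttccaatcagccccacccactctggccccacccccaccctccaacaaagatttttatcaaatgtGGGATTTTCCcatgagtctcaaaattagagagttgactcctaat
Nfkbia, chr12:55492648-55492897, minus strand: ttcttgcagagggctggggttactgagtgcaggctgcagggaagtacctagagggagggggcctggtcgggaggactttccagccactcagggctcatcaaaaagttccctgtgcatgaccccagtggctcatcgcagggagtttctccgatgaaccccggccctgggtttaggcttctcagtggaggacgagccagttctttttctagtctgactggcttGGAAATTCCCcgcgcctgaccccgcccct
Tnfaip3, chr10:19015411-19015660, minus strand: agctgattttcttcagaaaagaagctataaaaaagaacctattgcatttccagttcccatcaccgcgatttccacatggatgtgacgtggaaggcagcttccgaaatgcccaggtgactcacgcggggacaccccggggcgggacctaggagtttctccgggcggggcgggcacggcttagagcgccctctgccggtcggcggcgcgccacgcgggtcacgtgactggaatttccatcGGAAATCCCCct
Nfkb2, chr19:46304688-46304717, plus strand, around the first match: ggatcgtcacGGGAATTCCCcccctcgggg
Nfkb2, chr19:46304716-46304736, plus strand, around the second match, which another match overlaps: ggggccgaaaGGGGCTTTCCc
Rela, chr19:5637291-5637441, plus strand, with no match: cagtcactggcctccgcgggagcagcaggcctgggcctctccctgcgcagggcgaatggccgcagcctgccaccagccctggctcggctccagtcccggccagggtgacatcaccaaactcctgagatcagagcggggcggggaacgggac

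The chemokine genes Cxcl1 and Cxcl2 shared the letters GGGAATTTCC, and the match in Il6 read GGGATTTTCC. All 12 matches in these windows lay within 97 bases of the start, and 7 of them lay inside an open region. Of the 5 matches outside a region, 2 were in Ccl20, where they overlap one another, 2 in Cxcl2 and 1 in Il6. A looser form, GGGNNNNNCC, was in 8 of 8 members but also in 51.1% of all windows, so it set the members apart little. The letters TATAAA of a TATA box were in 1 of 8 members, Tnfaip3, against 12.4% of all windows. They lay 225 to 220 bases before its start. The windows of Cxcl1 and Cxcl2 hold the letters cataaaag, which this search did not count. The count therefore does not show that the other members lack a TATA box. The AP-1 letters TGANTCA were in 2 of 8, Il6 and Tnfaip3, against 6.18%. A match is a run of letters, not a measured binding site. κB letters were in 4.79% of the 6554 windows that a region overlapped and in 3.72% of the 10938 that no region overlapped.

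A region overlapped the promoter window of 6 of 8 members, against 37.5% of all windows. All 4 NF-κB members with a window were among the 6, beside Cxcl1 and Il6. In Nfkb2, Rela, Nfkbia and Cxcl1 the whole window lay in a region, in Tnfaip3 92.8% of it and in Il6 64.0%. Base composition differed between the members as well. CpG dinucleotides numbered 23 in the window of Rela, 22 in Tnfaip3, 21 in Nfkb2 and 8 in Nfkbia. Among cytokine genes they numbered 10 in Cxcl1, 9 in Cxcl2, 3 in Il6 and 2 in Ccl20. The median over all windows was 17 CpG where a region overlapped and 4 where none did, and Il6 was thus a member with few CpG and a region, whereas Cxcl2 had more CpG and none. The part of base composition in these results was not tested.

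**Figure D1:**
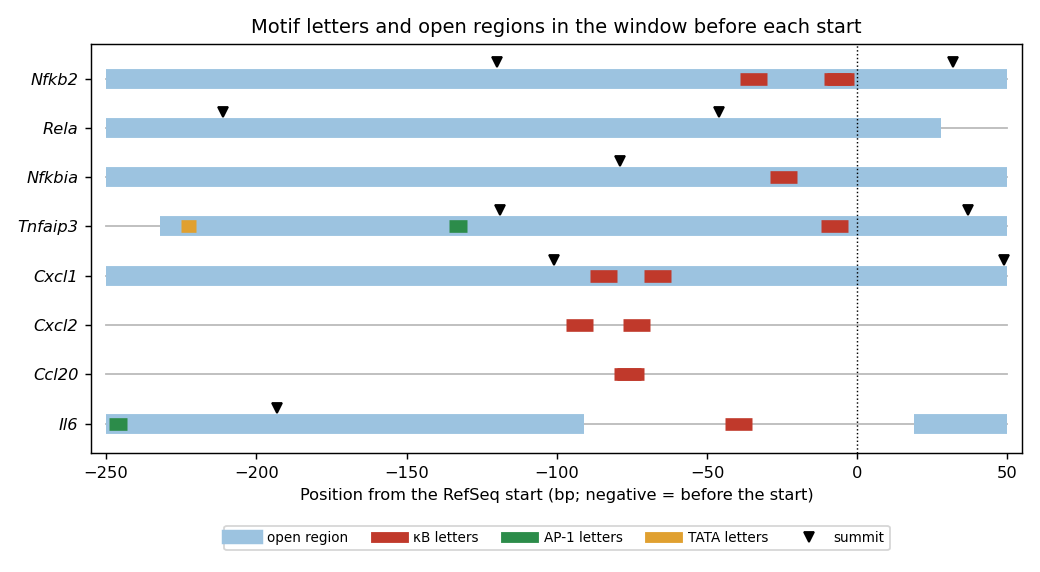
Position in bp from the RefSeq start (negative values lie before it) of κB, AP-1 and TATA letters in 8 genes, with open regions as light blue bars and their summits as triangles. The 7 κB matches inside regions are those of Nfkb2, Nfkbia, Tnfaip3 and Cxcl1, while the match of Il6 lies between its regions and Cxcl2 and Ccl20 have no region here.

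At the 5′ end, taken as a region midpoint within 1 kb of the outermost 5′ end of the gene, 6 of 10 members had a region, against 38.3% of all protein-coding genes. These were 4 of 6 NF-κB members (Rela, Relb, Nfkbia and Tnfaip3) and 2 of 4 cytokine members (Cxcl1 and Il6). On this measure each group held genes with and without a region. With regions of an IDR score of 1000 alone, the counts were 3 of 6 and 1 of 4 (Cxcl1), against 24% of all genes, and with regions over the 5′ end itself they were 3 of 6 and 1 of 4 (Cxcl1), against 32.4%. Among the 16006 regions with the lowest q-values they were 3 of 6 and 0 of 4, against 25.9%. With more than 1 region at the 5′ end there were 2 members, Nfkbia and Il6, against 4.92% of all genes. The midpoints of these 8 regions lay at most 762 bp from the 5′ end, and the next region beyond the limit of 1 kb lay 2693 bp before the start of Nfkbia.

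Rela encodes p65, the subunit that carries the transactivating activity of the canonical dimer. Its region, chr19:5637115-5637569, had a fold of 5.79 and a −log10 p-value of 20.0. It was the only region of Rela, with no other in the gene or nearest to its 5′ end. Its fold stood at percentile 21.0 of all regions at protein-coding 5′ ends, whose median was 7.90 (quartiles 6.05 and 10.6). The IDR score was 764. Rela was thus a member with a single promoter region of low fold.

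Relb encodes the main partner of p52 in the non-canonical pathway. Its region, chr7:19628314-19629090, had the highest fold among the members' 5′ regions, 10.00, at percentile 71.0, and a −log10 p-value of 73.1. It lay wholly after the start, with its midpoint at 736 bp and 5 summits between 458 and 1023 bp into the gene. The outermost 5′ end itself was thus not covered, and the region began beyond it, with no other start of this gene examined. Further regions lay 10.2 kb into the gene, with a fold of 5.60, and 19.6 kb into it, with a fold of 6.07. The last of these was nearer to the 5′ end of the neighbouring gene Clasrp than to that of Relb.

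Nfkb1 and Nfkb2 encode the precursors p105 and p100, from which the DNA-binding subunits p50 and p52 are made. Neither had a region within 1 kb of the outermost 5′ end. For Nfkb2 this depended on which start was taken. Its single region, chr19:46304457-46305000, with a fold of 6.11 and a −log10 p-value of 30.7, lay 3.73 kb into the gene of the table but over the first of the 3 starts in the promoter table, with its highest summit 120 bp before that start. When any start in the promoter table counted, all 4 NF-κB members in that table and 2 of 4 cytokine members had a region within 1 kb of a start, against 42% of the 17492 genes in it. The noncoding gene 4833438C02Rik starts 901 bp from the midpoint of the same region. A further start of Nfkb2 had κB letters 216 to 225 bases before it, at chr19:46305695-46305724 in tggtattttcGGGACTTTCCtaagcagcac, outside any region.

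Nfkb1 was the member with most regions inside the gene. It spans 107 kb, and its 5 regions lay at 21.1, 40.8, 50.6, 62.9 and 68.4 kb after the 5′ end. Their folds, in that order, were 6.65, 8.56, 6.28, 9.74 and 9.07, and 4 of the 5 had an IDR score of 1000. The strongest was chr3:135628706-135629340, with a −log10 p-value of 56.9. A sixth region lay 39.7 kb before the gene, with a fold of 7.40. The list thus placed 5 of the 6 regions of Nfkb1 within the gene and none at its outermost start, with no other start of this gene examined. The depth of the list is unknown, so that start may still be open. Whether these regions lie in exons or introns was not analysed here.

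Nfkbia encodes IκBα, the inhibitor that NF-κB induces to end its own activity. The region over its start, chr12:55492262-55492902, had a fold of 8.36, at percentile 55.3, and a −log10 p-value of 68.4. Its higher summit lay 79 bp before the start, 50 bp from the κB letters, and the lower lay 62 bp after it, with a fold of 5.70. A second region, chr12:55491698-55492073, lay inside this short gene of 3.24 kb. Its fold was 3.52, at percentile 0.905 of regions at 5′ ends, and its −log10 p-value was 14.7. By fold, the promoter of Nfkbia thus held an ordinary region next to one of the lowest at any 5′ end.

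Tnfaip3 encodes A20, a ubiquitin-editing enzyme that ends signalling above IκB kinase. Its 5′ region, chr10:19015238-19015642, had a fold of 8.68, at percentile 59.2, and a −log10 p-value of 44.8. One summit lay 37 bp after the start with a fold of 8.68, and the other 119 bp before it with a fold of 6.68. The κB letters lay between them, ending 3 bases before the start, and the AP-1 letters at 136 to 130 bases before the start were also inside the region. At the second start of Tnfaip3 in the promoter table, no region overlapped the window.

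Cxcl1 encodes a chemokine that draws neutrophils through the receptor CXCR2. Its 5′ region, chr5:90890567-90891716, was 1150 bp wide, at percentile 99.7 of widths at 5′ ends, whose median was 455 bp. It held 7 summits from 632 bp before the start to 285 bp after it, with folds between 2.84 and 5.91. The highest lay 173 bp into the gene, and the summit nearest to the κB letters, 12 bp away, had a fold of 4.48. The region of Cxcl1 was thus broad and low: its fold stood at percentile 23.0, although its IDR score was 1000.

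Il6 encodes interleukin-6, which acts on immune cells and on epithelium itself. It had regions on either side of its start. The first, chr5:30012732-30013023, had a fold of 7.36 and a −log10 p-value of 26.3, with its higher summit 193 bp before the start. The second, chr5:30013133-30013528, had a fold of 6.21 and a −log10 p-value of 19.9, with its highest summit 119 bp after the start. Between them was a gap of 109 bp, chr5:30013024-30013132, that held the start and the κB letters, 44 to 35 bases before it. The AP-1 letters at the far end of the window were inside the first region. A noncoding gene on the other strand, A230098N10Rik, spans both regions, and ATAC-seq has no strand to tell the genes apart.

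Cxcl2 encodes a neutrophil chemokine closely related to that of Cxcl1, and Ccl20 encodes the ligand of CCR6, by which epithelium draws dendritic cells and lymphocytes. Neither had a region within 1 kb of its start. The nearest to Cxcl2 were a pair of weak regions before it, chr5:90900795-90901031 at 2.99 kb with a fold of 4.83 and chr5:90900200-90900589 at 3.5 kb with a fold of 4.97. The nearest to Ccl20 lay 3.52 kb after the start, beyond the end of the gene. The depth of the list is unknown, so the promoters of Cxcl2 and Ccl20 are not listed as open, which does not show that they were closed.

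**Figure D2:**
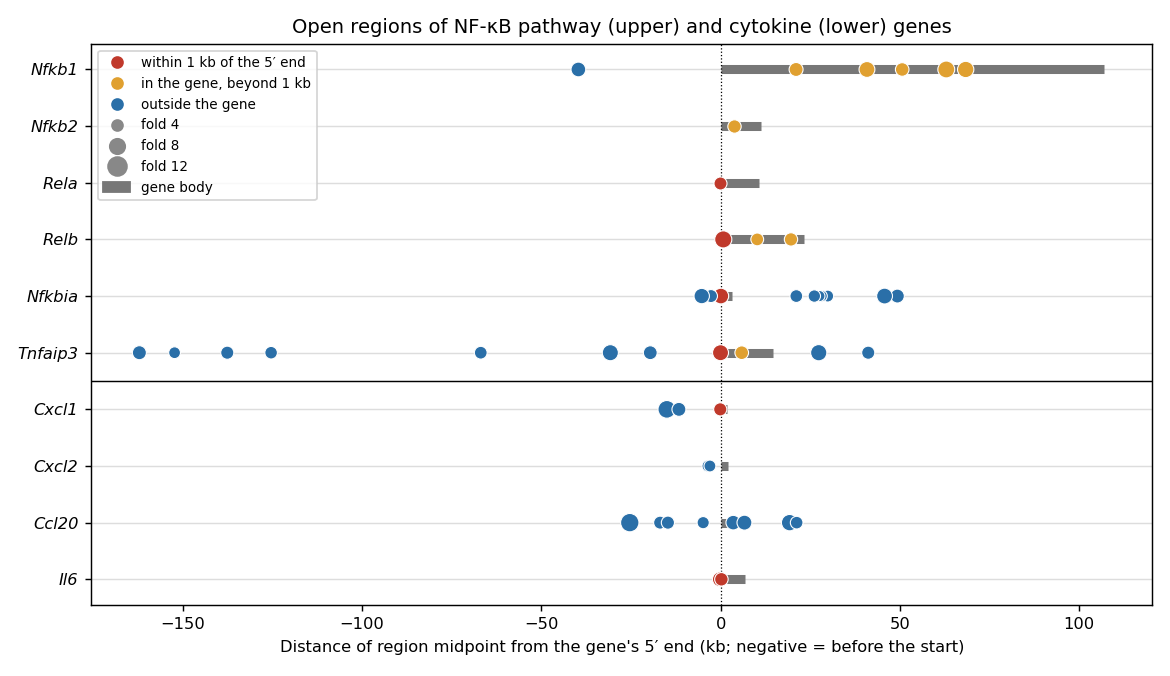
Distance in kb of each region's midpoint from the gene's 5′ end, for 6 NF-κB genes (above the line) and 4 cytokine genes (below it), with dot area by fold and grey bars for the genes. Nfkb1 has 5 of its 6 regions inside the gene, Tnfaip3 and Nfkbia have theirs spread on both sides, and Ccl20 is flanked by 8 regions with none at its start.

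Within the gene, and over 1 kb from its 5′ end, 4 of 6 NF-κB members held regions (9 in all) and 0 of 4 cytokine members did, against 25.6% of all genes. Gene length differed in the same direction, from 3.24 to 107 kb in the NF-κB members and from 1.88 to 6.86 kb in the cytokine members, and its part in the contrast was not tested. The 9 regions were 5 in Nfkb1, 2 in Relb and 1 each in Nfkb2 and Tnfaip3, so more than any other member Nfkb1 made up the count.

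Regions over 1 kb from every protein-coding 5′ end were assigned to the gene with the nearest one, which need not be the gene they act on. By this measure 8 of 10 members had a distal region, against 40.3% of all genes: 5 of 6 NF-κB members and 3 of 4 cytokine members. Together they had 39 of the 23756 distal regions. Per 100 kb of sequence nearest to their 5′ ends, the NF-κB members had 4.11 and the cytokine members 4.10 distal regions, against 0.895 over all protein-coding genes. The value of the cytokine group turned on single genes: without Ccl20 it was 1.64 and without Il6 9.69, whereas without any 1 gene that of the NF-κB group was between 3.18 and 4.58. Single members ranged from 0 to 16.2 per 100 kb. Of the 27 in the NF-κB group, 8 were inside the gene, whereas all 12 in the cytokine group were outside. With noncoding genes of known strand also counted as nearest genes, 13 of the 27 were still nearest to an NF-κB member, and all 12 to a cytokine member.

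Tnfaip3 had 10 distal regions, at percentile 98.8 of all genes by number, in 256 kb of nearest sequence. Of these, 7 lay before the start, as far as 162 kb from it. The strongest by fold were chr10:18987840-18988244, 27.4 kb after the start with a fold of 8.99, and chr10:19046004-19046349, 30.8 kb before it with a fold of 8.83; both had an IDR score of 1000, and the other 8 scored below that. The far group at 125 to 162 kb before the start, with folds from 4.74 to 6.70, lay within or beside the noncoding gene Gm20139. Only Tnfaip3 among the members had regions this far out. Gene spacing limits this comparison, since an assigned region lies no farther than midway to the next protein-coding 5′ end. That end was 341 kb away on this side of Tnfaip3. Among the other members only Il6 had a gap long enough, 277 kb before its start.

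Nfkbia had 9 distal regions, at percentile 98.4, in a stretch of 90.5 kb. A tight set of 4 lay between 26.1 and 29.9 kb after the start, with folds from 4.30 to 5.25, which were low among distal regions (median 6.87, quartiles 5.58 and 8.92). Their −log10 p-values ran from 24.0 to 34.5 and their IDR scores from 894 to 1000. Stronger regions lay 45.7 kb after the start, chr12:55446704-55447128 with a fold of 8.55, and 5.27 kb before it, chr12:55497752-55498088 with a fold of 8.08. The latter, and another 2.69 kb before the start with a fold of 5.77, lay in the noncoding gene Gm36634. Nfkbia was therefore surrounded by many regions, most of them of modest fold, although 4 of the 9 had an IDR score of 1000.

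Ccl20 had 8 distal regions in only 49.4 kb, at percentile 97.8, and 16.2 per 100 kb was the highest density among the members. Before the start, 4 regions lay at 25.3, 16.9, 14.7 and 4.87 kb, with folds of 11.51, 5.74, 5.90 and 5.07. After it, 4 lay at 3.52, 6.64, 19.2 and 21.2 kb, with folds of 7.27, 7.59, 9.16 and 5.46. The farthest of the first set, chr1:83091052-83091798, had the highest fold of any region of the members, at percentile 90.3 of distal regions, and a −log10 p-value of 66.1. Among genes of any type with a known strand, none had a 5′ end nearer to any of the 8 than that of Ccl20.

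Cxcl1 and Cxcl2 lie side by side, with 12.7 kb between their starts, and had 2 distal regions each. Those of Cxcl1 were the stronger: chr5:90876090-90876392, 15.0 kb before its start, had a fold of 10.66 and a −log10 p-value of 68.6, and chr5:90879295-90879932, 11.6 kb before it, had a fold of 6.62 and a −log10 p-value of 33.2. Those of Cxcl2 were the pair of weak regions named above, which lie between both genes. A row of 7 genes for CXC chemokines on the same strand ends with them (Cxcl5, Ppbp, Pf4, Cxcl3, Cxcl15, Cxcl1 and Cxcl2), and among these Cxcl1 alone had a region at its 5′ end.

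Relb and Nfkb2 had 1 distal region each, already described, and Rela and Il6 had 0. The stretch nearest to Il6, 169 kb, was the second longest among the members after that of Tnfaip3. The 5′ regions of Il6 were thus the only regions of this gene in the list, while Ccl20, in a stretch of 49.4 kb, had distal regions alone.

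**Figure D3:**
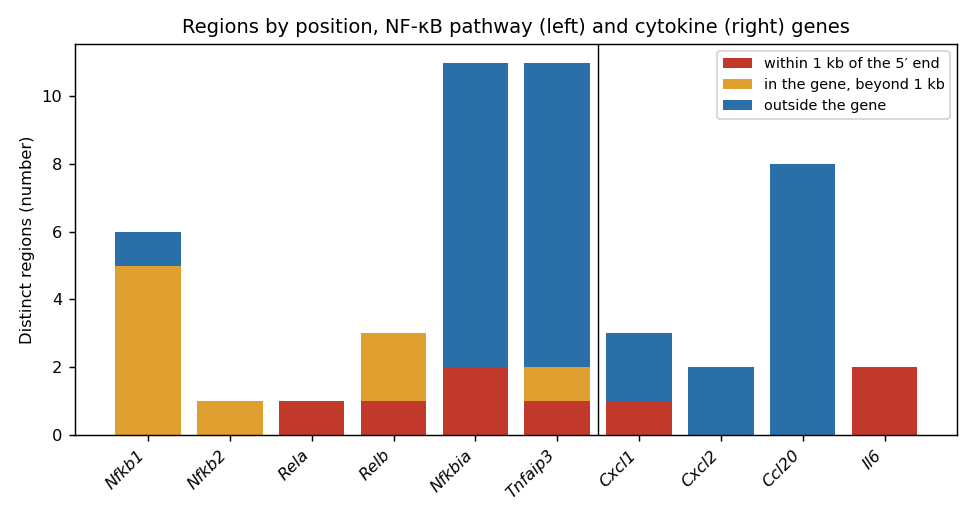
Number of distinct regions per gene by position relative to the gene, with NF-κB genes to the left of the line and cytokine genes to the right. Nfkbia and Tnfaip3 have 11 regions each and Ccl20 has 8, whereas Rela and Nfkb2 have 1 each.

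Counting the 5′ end, the gene and the distal regions together, the NF-κB members had 33 regions and the cytokine members 15. With a distal region and none at the 5′ end there were 4 of 10 members (Nfkb1, Nfkb2, Cxcl2 and Ccl20), against 22.5% of all genes. Nfkb2 is counted here by its outermost 5′ end, although its region lies over a start in the promoter table. The strongest 5′ region of each gene ranged in fold from 5.79 to 10.00 in the NF-κB group (median 8.52, 4 genes) and was 5.91 and 7.36 in the cytokine group, so that the ranges overlapped. Distal regions had a median fold of 6.28 in the NF-κB group (range 4.30 to 9.74) and 6.26 in the cytokine group (range 4.83 to 11.51), both below the median of 6.87 over all distal regions. The highest folds of the cytokine group thus lay far from the starts, at Ccl20 and Cxcl1, and those of the NF-κB group just inside Relb and inside Nfkb1.

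**Figure D4:**
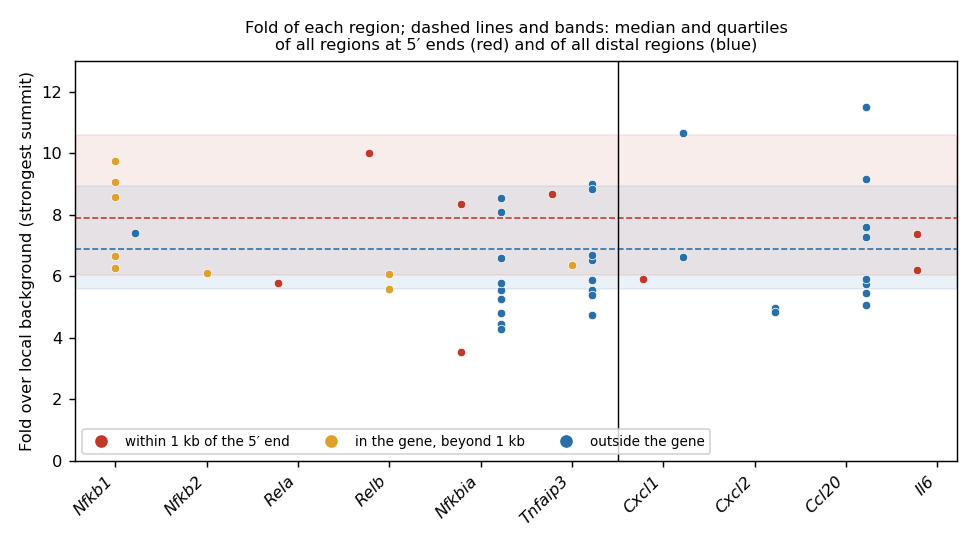
Fold over the local background at the strongest summit of each region (points, coloured by position), with median and quartiles of all regions at 5′ ends (red) and of all distal regions (blue). Of the 8 regions at 5′ ends, 3 lie above the red median of 7.90, those of Relb, Tnfaip3 and Nfkbia.

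Other genes of the pathway and other cytokine genes, from lists drawn up by name with earlier results of these data known, gave the setting. The receptors counted with the pathway include Egfr, which encodes a growth factor receptor. Of 59 other pathway genes, 41 (69.5%) had a 5′ region, and of 59 other cytokine genes that could be placed, 11 (18.6%), beside 38.3% of all genes and 7 of 10 housekeeping genes. The median fold of these regions was 8.50 and 7.58. Among the 10 members the shares were 66.7% and 50.0%, a narrower contrast. Among the 16006 regions with the lowest q-values the contrast among the members was instead the wider one. The shares were then 44.1% and 11.9% in the lists, and 50.0% and 0 of 4 genes among the members.

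By role, 5 of 6 further genes of the NF-κB and IκB families had a 5′ region, for example Rel, which encodes c-Rel, with a fold of 8.66 and Nfkbib with a fold of 11.2, but not Bcl3. Of kinases in and above the IκB kinase complex, 7 of 8 had one, among them Chuk (fold 8.46) and Ikbkb (fold 6.04), which encode its catalytic subunits, but not Ikbke. Adaptors, which link receptors to the kinases, had one in 13 of 19 genes, Tradd and Traf2 for example but not Ripk1 and Traf1. Ubiquitin-linked inhibitors of the pathway had one in 7 of 9, such as Cyld and Otulin but not Tnip1 and Otud7b. The share was lowest for receptors, with 9 of 17, such as the TNF receptor genes Tnfrsf1a and Tnfrsf1b but not Tnfrsf11a and Tnfrsf12a.

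Among cytokine genes, 3 of 13 further CXC and CX3C chemokine genes had a 5′ region (Cxcl10, Cxcl16 and Cx3cl1), 2 of 16 CC chemokine genes (Ccl2 and Ccl25) and 6 of 30 other cytokine genes, such as Il1rn and Il18 but not Il1a and Il1b. Distal regions did not follow this order, since 38 of 59 other pathway genes (64.4%) and 38 of 59 other cytokine genes (64.4%) had at least 1, against 40.3% of all genes. With a distal region and none at the 5′ end there were 13 of 59 other pathway genes and 29 of 59 other cytokine genes, against 22.5% of all genes, a share that the pathway count was close to. Of those with a promoter sequence, 10 of 47 other pathway genes (21.3%) and 6 of 42 other cytokine genes (14.3%) had κB letters in the window, against 4.12% of all windows.

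**Figure D5:**
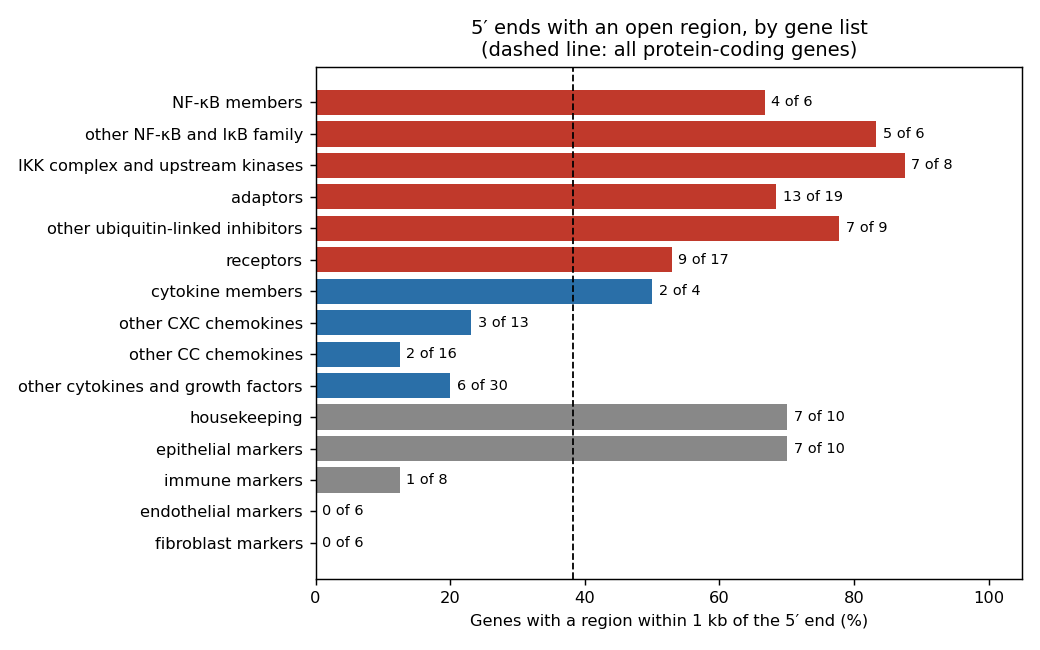
Share in percent of the genes of each list with a region within 1 kb of the 5′ end, with the number of genes beside each bar and 38.3% of all protein-coding genes as a dashed line. Every list of pathway genes (red) lies above the line, the lists of cytokine genes other than the 4 members (blue) lie below it, and marker and housekeeping lists are in grey.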

How the data were processed

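Libraries were made with a Nextera kit from mSGOs and sequenced in pairs; the ENCODE ATAC-seq pipeline (version not given in the sources used here) served the authors for alignment and peak calls, and the labels name HOMER and GRCm39. In the deposited list the authors' peak caller gave each summit an IDR score, a fold (ratio of signal to local background), a −log10 p-value and a −log10 q-value. No depth per sample is given. Lines with the same coordinates were joined into 1 region carrying the line with the highest −log10 p-value. Genes came from the RefSeq table of GRCm38.p6; strand came from the RefSeq promoter table for 17492 protein-coding genes and by name from GENCODE for 3948. Where both gave a strand, 21985 of 22110 genes were the same, and the promoter table was used otherwise. Promoter sequences are RefSeq's, GRCm38.p6. Percentiles of a number of regions rank all 21440 protein-coding genes, with ties at their mean rank. Of the lists, 3 cytokine genes (Cxcl11, Il36a and Il36g) could not be placed. Functions were tested on simulated data. The named genes are the members and, in list order, the first genes of each list with and without a region; the members and lists were chosen with earlier results of these data known. Python 3.11.15, numpy 2.4.6, pandas 2.3.3 and matplotlib 3.10.9 were used.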

Additional observations from a re-analysis of the deposited data

How the results depend on the processing

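NF-κB members with a 5′ region numbered 4, and between 3 and 5 under the 8 alternatives tried. That of cytokine members, 2, fell to 1 (Cxcl1) when a region had to overlap the 5′ end itself (32.4% of all genes) and to 1 (Cxcl1) with an IDR score of 1000 (24%), and it was 0 among the 16006 regions with the lowest q-values, where 25.9% of all genes had one. Among those regions, other pathway genes with a 5′ region numbered 26 and other cytokine genes 7, regions in NF-κB members 5, and distal regions 14 for NF-κB and 6 for cytokine members. With an IDR score of 1000 these numbers were 25, 6, 5, 12 and 5. Smaller sets lower them by construction, and counting every line of the list raises them, to 27 regions in NF-κB members and to 64 and 25 distal regions. With noncoding genes of known strand allowed as the nearest gene, distal regions of NF-κB members fell from 27 to 13 and those of cytokine members remained 12. On the gene's strand alone, κB letters were in 4 of 8 windows, with no share of all windows computed for that measure. Counting any start in the promoter table, and leaving out single genes from the density of distal regions, were chosen after the data were seen. No replicate could be left out, and no paired analysis was possible because the list has no values by sample. The depth is unknown, so a region missing from the list may be open.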

Other observations

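Some genes of the wider lists had distal regions in number without a region at the 5′ end, as Ccl20 did; they were picked after their values were seen. Among cytokine genes, Il12a, which encodes a subunit of interleukin-12, had 16 distal regions nearest to it in 402 kb, Ccl28, a chemokine of mucosal epithelium, had 6 in 101 kb and 3 regions inside the gene, and Il33, Lif and Il34 had 5 each. Among pathway genes, Il1r1, which encodes the interleukin-1 receptor, had 6 regions inside the gene, and Bcl3, a nuclear relative of IκB, had 6 distal regions in only 27.6 kb. Within the list of receptors, Egfr had 18 distal regions, and 14 regions inside the gene, beside a 5′ region with a fold of 5.37. Nfkbiz, which encodes IκBζ, had a 5′ region with a fold of 6.96 and 12 distal regions in 288 kb.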
